A study of Mus musculus with 16 samples.

Results

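The hormone gene Amh and its receptor gene Amhr2 were followed in whole ovaries of mice aged 1 year. They were represented on the array by the probes whose gene name, or whose current symbol reached through the probe's RefSeq accession, was Amh or Amhr2. These were 2 of the 41174 probes, 1 for each gene, and both genes were among the 24595 genes and unnamed probes tested. The study concerns the part of 2 estrogen receptors, ERα and ERβ, in the transdifferentiation of granulosa cells in aged ovaries. Its 16 arrays form 4 groups of 4: Ex3aERKO, from ERα knockout mice; Ex3bERKO, from ERβ knockout mice; Ex3abERKO, from mice without either receptor; and control, whose ovaries kept a single allele of each receptor. The controls had therefore also lost 1 copy of each receptor gene, and no ovary with both copies of both was analysed here. The labels name neither the strain nor any Cre driver, and they do not say whether the 4 ovaries of a group came from separate mice, so p-values here measure the spread between arrays, which may be technical.

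Anti-Müllerian hormone belongs to the TGFβ family. The fetal Sertoli cell secretes it to make the Müllerian ducts of the male regress, and in the adult ovary it comes from granulosa cells of small growing follicles, where it restrains follicle recruitment. The precursor is cut by furin-like convertases, and the mature hormone binds AMHR2, a type II receptor kinase dedicated to it, which then recruits a shared type I receptor and passes the signal to the SMAD proteins of the BMP branch.

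Each gene was read by a single 60-base probe, so the values below stand for these stretches of transcript only, printed in lower case with no base marked. Per the file headers, the Amh probe lies at chr10:80597080-80597139 and the Amhr2 probe at chr15:102440656-102440715 of the mouse build mm7. The files do not say which exon holds either of them.
Amh probe: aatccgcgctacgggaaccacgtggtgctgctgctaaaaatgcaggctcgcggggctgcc
Amhr2 probe: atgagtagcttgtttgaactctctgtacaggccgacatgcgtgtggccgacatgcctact
The Amh probe is 63.3% G and C and the Amhr2 probe 51.7%. Both were well above background on all 16 arrays, and neither had a saturated pixel. The Amh spot was dim, at 2.63 to 26.8 times its local background, whereas the Amhr2 spot was at 417 to 1342 times its own, with 368 to 1542 of the 43379 non-control spots of an array brighter than it.

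All levels are log2 of the processed signal over the array's 75th percentile. That percentile ran from 1211.4 to 1806.3 units of fluorescence over the arrays, on which 80.42% to 87.62% of spots were well above background. The receptor genes were read first as a check of the labels. Esr1, the gene for ERα, was at -2.18, -2.19, -1.89 and -3.66 in Ex3aERKO and at -1.86, -1.04, -2.11 and -1.93 in Ex3abERKO, against -0.32, -0.17, -0.12 and 0.20 in control, so both groups without ERα lay below every control array. Esr2, the gene for ERβ, was at -1.62, -2.54, -1.61 and -2.53 in Ex3abERKO, below every control array, but at 0.04, -0.58, 1.00 and 0.84 in Ex3bERKO, against -0.22, 0.34, -0.33 and -0.23 in control. Where the Esr2 probe lies relative to the deleted stretch was not established here. It was not called lower in Ex3bERKO than in control (0.43, limma, adjusted p = 0.914). Its level therefore checks the label of neither Ex3bERKO nor Ex3abERKO. The ovary's own defining genes were present: all 16 oocyte genes measured and all 14 granulosa cell genes were well above background on at least 1 array of each group.

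Amh was lower in both groups without ERα and was not called different from control in Ex3bERKO. Its levels were -3.15, -2.69, -3.82 and -4.02 in Ex3aERKO, averaging -3.42 ± 0.61 (SD, n = 4). They were -1.37, -2.93, -0.75 and -0.56 in Ex3bERKO, averaging -1.41 ± 1.08 (SD, n = 4). In Ex3abERKO they were -3.84, -3.29, -3.98 and -3.33, averaging -3.61 ± 0.35, against -2.18, -1.40, -1.30 and -1.98 in control, averaging -1.71 ± 0.43 (SD, n = 4 each). Every array without ERα lay below every control array. Over all features, 16.8% had no overlap with control in Ex3aERKO and 24.9% in Ex3abERKO, in either direction. Ex3bERKO held the 2 brightest Amh arrays of the study and also replicate 2, whose level of -2.93 lay below all 4 controls.

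**Figure D1:**
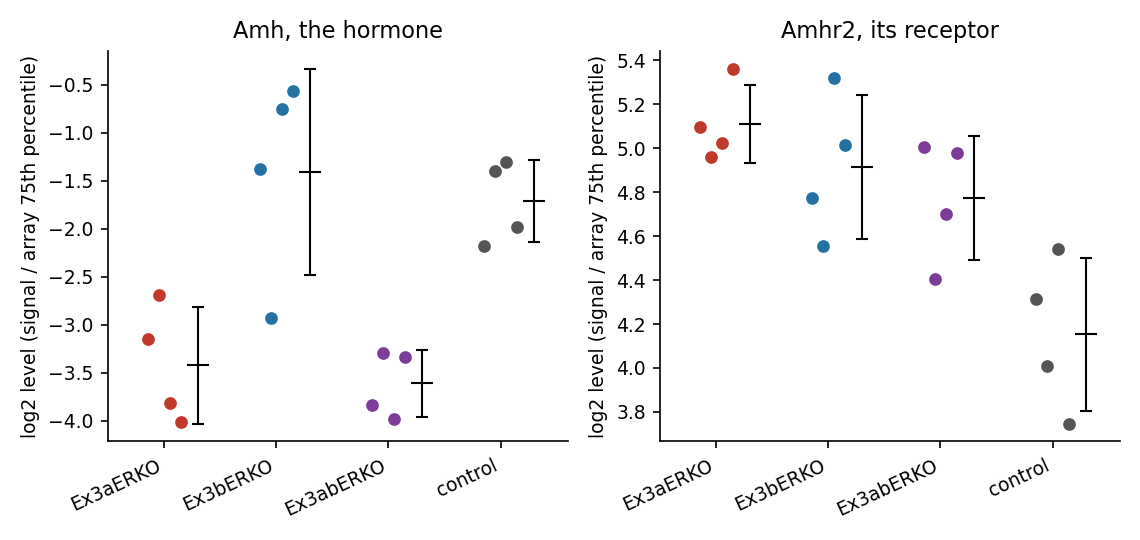
Log2 level of Amh and of Amhr2 (signal over the array's 75th percentile) in each of the 16 arrays, by group. Points are arrays and the bars beside them are the mean ± SD of 4 arrays; the Ex3aERKO and Ex3abERKO points of Amh lie below all control points, and the Ex3aERKO points of Amhr2 lie above all control points.

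Relative to control, Amh fell by 1.71 ± 0.45 (SE) on the log2 scale in Ex3aERKO, or 3.27-fold (limma, adjusted p = 0.0297). In that comparison 7.92% of all features were called (4.16% lower, 3.76% higher), and 3.53% had a larger difference than Amh in either direction. It fell by 1.90 ± 0.45 in Ex3abERKO, or 3.72-fold (limma, adjusted p = 0.00747), where 22.2% of features were called (11.6% lower, 10.6% higher) and 4.92% had a larger difference. In Ex3bERKO it differed from control by 0.31 ± 0.45 (limma, adjusted p = 0.949, 95% interval -0.65 to 1.26), where 1.00% of features were called. The smaller call depended on single arrays: it was lost without control replicate 2, 3 or 4 or Ex3aERKO replicate 3 or 4 (limma, adjusted p from 0.0543 to 0.0943). The call in Ex3abERKO held under all 26 alternatives run.

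Among the knockouts, Amh was lower wherever ERα was missing. It was lower in Ex3abERKO than in Ex3bERKO by -2.20 ± 0.45, or 4.61-fold (limma, adjusted p = 0.00464), with no overlap of the groups; 16.6% of all features were called (8.37% lower) and 19.4% had groups without overlap. It was lower in Ex3aERKO than in Ex3bERKO by -2.02 ± 0.45, or 4.04-fold (limma, adjusted p = 0.0278), with 2.30% of features called (1.66% lower) and 8.37% without overlap, although replicate 2 of Ex3bERKO lay inside the Ex3aERKO range. This last call was lost without any of Ex3aERKO replicates 1, 3 and 4 or Ex3bERKO replicates 1, 3 and 4 (limma, adjusted p from 0.0508 to 0.11) and with the slide as a block (-1.85, adjusted p = 0.0577). Between Ex3abERKO and Ex3aERKO, where 7.73% of features were called and 13.9% did not overlap, Amh differed by -0.19 ± 0.45 (limma, adjusted p = 0.873, 95% interval -1.14 to 0.77). In order of mean level the groups ran Ex3bERKO, control, Ex3aERKO, Ex3abERKO, and only control and Ex3aERKO were neighbours that differed beyond their spread.

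Amhr2 had its lowest mean in control and was called higher in Ex3aERKO and Ex3abERKO. Its levels were 5.10, 4.96, 5.02 and 5.36 in Ex3aERKO, averaging 5.11 ± 0.18 (SD, n = 4). In Ex3bERKO they were 4.77, 4.55, 5.32 and 5.01, averaging 4.91 ± 0.33 (SD, n = 4). They were 5.01, 4.40, 4.70 and 4.98 in Ex3abERKO, averaging 4.77 ± 0.28, against 4.31, 4.01, 4.54 and 3.75 in control, averaging 4.15 ± 0.35 (SD, n = 4 each). All arrays of the single knockouts lay above all controls, though the lowest Ex3bERKO array (4.55) was next to the highest control (4.54), while replicate 2 of Ex3abERKO lay below the highest control. Groups without overlap in either direction made up 16.8% of all features for Ex3aERKO, 7.99% for Ex3bERKO and 24.9% for Ex3abERKO.

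Amhr2 rose by 0.96 ± 0.21 in Ex3aERKO, or 1.94-fold (limma, adjusted p = 0.0122). The call was kept when any single array was left out, but not when the 3 arrays described below were (0.87, adjusted p = 0.0757). In Ex3abERKO Amhr2 rose by 0.62 ± 0.21, or 1.54-fold (limma, adjusted p = 0.048). In these 2 comparisons 10.65% and 31.38% of all features had a larger difference than Amhr2 in either direction. The Ex3abERKO call was near the threshold and was lost without any of 11 arrays: control replicate 1, 2 or 4, Ex3aERKO replicate 1, 2 or 3, Ex3bERKO replicate 1 or 4, and Ex3abERKO replicate 1, 3 or 4 (limma, adjusted p from 0.0549 to 0.139). In Ex3bERKO Amhr2 differed from control by 0.76 ± 0.21 and did not pass (limma, adjusted p = 0.124), a difference between those of the other knockouts in size. The knockouts differed from each other by -0.34 ± 0.21 (Ex3abERKO minus Ex3aERKO), -0.14 ± 0.21 (Ex3abERKO minus Ex3bERKO) and 0.19 ± 0.21 (Ex3aERKO minus Ex3bERKO), with adjusted p of 0.394, 0.71 and 0.819 by limma. The order of mean level was Ex3aERKO, Ex3bERKO, Ex3abERKO, control, and only the last pair of neighbours differed by the test.

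**Figure D2:**
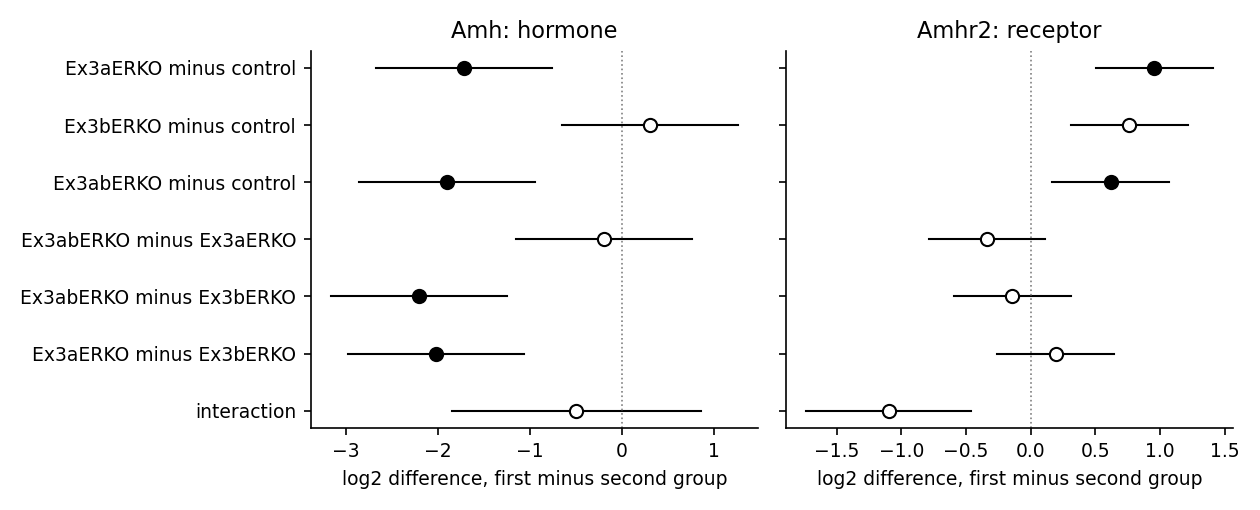
Log2 difference of Amh and of Amhr2 in the 6 comparisons between groups and in the interaction, with 95% intervals from limma. Filled points passed at an adjusted p under 0.05: 4 comparisons for Amh, all lower in the group without ERα, and 2 for Amhr2, both higher than control.

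The interaction asks whether loss of ERα shifted a gene by the same amount with and without ERβ. It is the difference of Ex3abERKO from Ex3aERKO minus that of Ex3bERKO from control, and 3.53% of features passed. For Amh it was -0.49 ± 0.63 (limma, adjusted p = 0.791). For Amhr2 it was -1.10 ± 0.30 (limma, adjusted p = 0.0589): the shift from control in Ex3abERKO, 0.62, was smaller than the sum of the 2 single knockouts' shifts, 0.96 and 0.76. It missed the threshold here and passed without control replicate 3 or without Ex3bERKO replicate 2 (limma, adjusted p = 0.0497 and 0.0455).

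The hormone and receptor signals were also set against each other within each array, as log2 Amh minus log2 Amhr2. Only differences of this value between groups can be read, since it joins 2 probes. It was -8.25, -7.65, -8.84 and -9.38 in Ex3aERKO and -6.15, -7.49, -6.07 and -5.58 in Ex3bERKO. It was -8.84, -7.69, -8.68 and -8.31 in Ex3abERKO, against -6.49, -5.41, -5.84 and -5.72 in control. The 8 arrays without ERα all lay below the 8 arrays with it. How many other gene pairs separate so was not counted. Of single features, 16.8% (Ex3aERKO) and 24.9% (Ex3abERKO) did not overlap with control, and 8.37% and 19.4% did not overlap with Ex3bERKO. Amhr2 itself differed from Ex3bERKO by only 0.19 in Ex3aERKO and -0.14 in Ex3abERKO, so there the value mostly repeats the Amh difference. The value was lower than control by -2.67 in Ex3aERKO and by -2.52 in Ex3abERKO, and lower than Ex3bERKO by -2.21 in Ex3aERKO and by -2.06 in Ex3abERKO. Each of these 4 had a two-sided exact permutation p of 0.0286, the smallest that 4 arrays against 4 allow, and 0.0429 adjusted over the 6 comparisons. They no longer passed without any single array of Ex3aERKO or Ex3abERKO or without Ex3bERKO replicate 4 (adjusted exact p = 0.0571 or 0.0857). The adjusted p is under 0.05 only while all 4 comparisons hold the smallest p. A loss can therefore come from another comparison and says little about stability. Ex3bERKO differed from control by -0.46 (exact p = 0.4) and Ex3abERKO from Ex3aERKO by 0.15 (exact p = 0.743). Across the 16 arrays with group means removed, Amh and Amhr2 had no relation that passed (Pearson r = 0.308, permutation p = 0.35, adjusted 0.82 over 11 relations; Spearman rho = 0.118, p = 0.698; r = 0.137 without the 2 arrays farthest from the median of Amhr2).

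The 16 arrays sat on 4 slides, and slide 2 lacked Ex3bERKO while slide 3 lacked Ex3abERKO; the other two had every group once. Within slides 1 to 4, Amh differed between Ex3aERKO and control by -0.52, -1.84, -1.76 and -2.72, and between Ex3abERKO and control by -1.80, -1.59 and -2.03 on slides 1, 2 and 4. Every one of these was lower than control. Between Ex3aERKO and Ex3bERKO the Amh difference was 0.24, -2.19 and -3.27 on slides 1, 3 and 4, so slide 1 went the other way. Within slides Amhr2 was above control on each slide in each knockout: by 0.65, 1.27, 1.09 and 0.82 in Ex3aERKO, by 0.24, 0.88 and 0.78 in Ex3bERKO (slides 1, 3 and 4) and by 0.39, 0.96 and 0.44 in Ex3abERKO (slides 1, 2 and 4).

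Genes of the oocyte were low in the same groups as Amh. These are whole ovaries, in which fewer cells of a type and less RNA per cell cannot be told apart. Of 16 measured oocyte genes, among them the egg coat genes Zp2 and Zp3, 11 were lower and none higher in Ex3aERKO than in control, beside 4.16% of all features called lower (median log2 difference -2.73, against -0.08 over all features). In Ex3abERKO 9 were lower, beside 11.6% of all features (median -1.71, against -0.11). None passed in Ex3bERKO (median 0.73, against 0.01). Zp2 fell by 2.93 ± 0.62 in Ex3aERKO and by 2.14 ± 0.62 in Ex3abERKO (limma, adjusted p = 0.00981 and 0.0231), the second a call lost without control replicate 2 or 3 or Ex3abERKO replicate 1 (adjusted p from 0.0582 to 0.0638). Zp3 fell by 3.13 ± 0.46 in Ex3aERKO and by 2.52 ± 0.46 in Ex3abERKO (limma, adjusted p = 0.0011 and 0.00153) and differed by 0.71 ± 0.46 in Ex3bERKO (adjusted p = 0.731). The summed level of the 16 genes, in multiples of the array's 75th percentile, ran from 2.38 to 13.2 in Ex3aERKO arrays, from 30.1 to 83.3 in those of Ex3bERKO and from 7.12 to 12.8 in those of Ex3abERKO, against 23.6 to 50 in control.

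**Figure D3:**
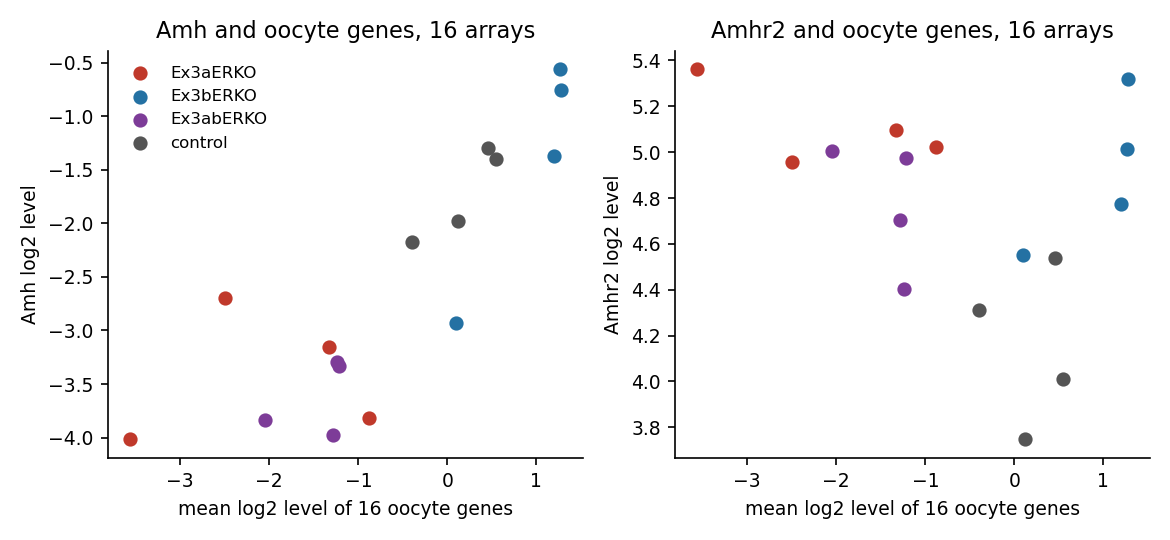
Log2 level of Amh (left) and of Amhr2 (right) against the mean log2 level of 16 oocyte genes, 1 point for each of the 16 arrays, coloured by group. The 8 arrays without ERα hold the lowest oocyte means, up to -0.877, against -0.396 or more in the others, and their Amh levels run from -4.02 to -2.69; Amhr2 shows no such order.

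Over the 16 arrays the oocyte genes correlated with Amh at r from 0.5 to 0.913 (median 0.828), whereas the median over 18237 named genes was 0.114, and 12 of the 16 exceeded 0.7 where 3.79% of all genes did. These values share the group differences and the arrays. With group means removed, the mean oocyte level and Amh had r = 0.472 (permutation p = 0.104, adjusted 0.57 over 11 relations; Spearman rho = 0.479, p = 0.117), and r = 0.087 without the 2 farthest arrays, Ex3aERKO replicate 4 and Ex3bERKO replicate 2. The oocyte genes did not run with Amhr2 (median r = -0.355). The part of the oocyte genes in the Amh result was not tested.

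In Ex3aERKO, Ex3bERKO and Ex3abERKO against control, 7.92%, 1.00% and 22.2% of all features were called, with medians over all features of -0.08, 0.01 and -0.11. The counts and medians of each cell type's genes below are to be read beside these. Of 14 granulosa cell genes, 2 were higher and none lower in Ex3aERKO, none passed in Ex3bERKO, and 1 was higher and 7 lower in Ex3abERKO (median differences 0.50, -0.04 and -1.27). Their summed level was 162 to 408 in Ex3aERKO arrays, 134 to 217 in those of Ex3bERKO and 38.3 to 107 in those of Ex3abERKO, against 143 to 264 in control. Fshr, the receptor of follicle-stimulating hormone, differed from control by 1.26 ± 0.38, 0.51 ± 0.38 and -1.06 ± 0.38 in Ex3aERKO, Ex3bERKO and Ex3abERKO (limma, adjusted p = 0.0581, 0.795 and 0.0612). It was lower in Ex3abERKO than in Ex3aERKO by -2.32 ± 0.38, and its interaction passed at -2.83 ± 0.54 (limma, adjusted p = 0.00303 and 0.0113). Foxl2, the transcription factor that keeps granulosa cell identity, differed from control by -0.04, -0.10 and -0.22 in Ex3aERKO, Ex3bERKO and Ex3abERKO and passed in none (limma, adjusted p = 0.943, 0.951 and 0.345). Of 14 genes typical of the Sertoli cell, which in the testis also makes Amh, 7 were higher in Ex3aERKO, 3 higher in Ex3bERKO, and 10 higher and 1 lower in Ex3abERKO (median differences 1.29, 0.71 and 3.07). The 10 include Dmrt1, well above background on no array outside Ex3abERKO, and Tsx, well above it on no control array. The Dmrt1 call was not kept under every background correction, as given below. The summed level of the 14 genes was 53.7 to 78.6 in Ex3aERKO arrays, 18.1 to 45.5 in those of Ex3bERKO and 23.8 to 67.3 in those of Ex3abERKO, against 6.79 to 11.1 in control. Macrophage genes were called higher for 4 of 10 in Ex3aERKO, 0 in Ex3bERKO and 10 in Ex3abERKO (medians 1.15, 0.55 and 1.88). Their r with Amh, which shares the group differences, had a median of -0.72, against 0.114 over all genes. With group means removed, the mean macrophage level and Amh had r = -0.453 (permutation p = 0.272, adjusted 0.82 over 11 relations). That r was 0.172 without the 2 farthest arrays. For the granulosa and Sertoli genes the median r with Amh was 0.249 and -0.487. With group means removed, their mean levels and Amh had r = -0.129 and -0.013 (permutation p = 0.626 and 0.958, adjusted 0.82 and 0.958). The remaining lists are given for the same groups in that order. Surface epithelium genes (10) were higher for 5, 0 and 3, with 1 lower in Ex3abERKO (medians 1.51, 0.62 and 0.91). Theca and Leydig cell genes (10) were higher for 3, 2 and 1 and lower for 3, 1 and 5 (medians -0.56, -0.24 and -1.10). Stromal genes (8) were higher for 1, 0 and 4 and lower for 1, 0 and 1 (medians -0.06, 0.21 and 0.99). Luteal genes (8) were lower for 4, 1 and 5 (medians -1.60, -1.30 and -2.54), and endothelial genes (8) lower for 5, 0 and 4 (medians -0.94, -0.30 and -0.54). The part of these lists in the results for Amh and Amhr2 was not tested.

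Of 8 genes of oviduct, liver or red blood cells, 0, 0 and 2 were called higher in Ex3aERKO, Ex3bERKO and Ex3abERKO (medians 1.45, 0.14 and 1.43); the 2 in Ex3abERKO stand beside 10.6% of all features called higher there. Ex3aERKO replicate 2, Ex3abERKO replicate 2 and control replicate 4 had the highest mean level of them in their groups. Without these 3 arrays, which leaves fewer in each fit, 4 oocyte genes passed in Ex3aERKO and 6 in Ex3abERKO. The Amh difference was then -2.04 in Ex3aERKO (limma, adjusted p = 0.0748) and -2.09 in Ex3abERKO (adjusted p = 0.0241).

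The listed signalling partners of Amh, which include other type II receptors of the family, were read next. Of 19 listed partners, all measured, 1 was called in Ex3aERKO, none in Ex3bERKO and 2 in Ex3abERKO relative to control, beside 7.92%, 1.00% and 22.2% of all features. Their median log2 differences were -0.005, -0.125 and -0.007, against -0.084, 0.01 and -0.105 over all features. Among the convertases, Pcsk6, a furin-like protease, was at 4.12, 4.10, 5.02 and 3.91 in Ex3aERKO and at 3.48, 3.42, 3.37 and 3.85 in Ex3bERKO. It was at 4.11, 3.42, 4.55 and 3.48 in Ex3abERKO, against 2.74, 3.19, 2.98 and 2.09 in control. All 12 knockout arrays lay above all controls. Groups without overlap with control made up 16.8%, 7.99% and 24.9% of all features in Ex3aERKO, Ex3bERKO and Ex3abERKO. Pcsk6 rose by 1.54 ± 0.31 in Ex3aERKO and by 1.14 ± 0.31 in Ex3abERKO (limma, adjusted p = 0.0069 and 0.0154), and differed by 0.78 ± 0.31 in Ex3bERKO (adjusted p = 0.376). Only the removal of all 3 arrays named above ended the call in Ex3aERKO (1.38, adjusted p = 0.0517). Furin itself passed only between Ex3abERKO and Ex3bERKO, at 0.64 ± 0.18 (limma, adjusted p = 0.023), a call lost without Ex3bERKO replicate 1 or Ex3abERKO replicate 1, 2 or 4, with the slide as a block (0.53, adjusted p = 0.138) and without the 3 arrays (0.60, adjusted p = 0.0993). Pcsk5 passed nowhere.

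The type I receptors that AMHR2 recruits are Acvr1, Bmpr1a and Bmpr1b. None of these 3 was called against control in any knockout. Bmpr1b was at 0.40, -0.15, -0.46 and 2.22 in Ex3aERKO and at -1.57, -1.47, -0.58 and -2.15 in Ex3abERKO, against -0.69, -0.22, -0.95 and -0.62 in control. It was lower in Ex3abERKO than in Ex3aERKO by -1.95 ± 0.48 (limma, adjusted p = 0.0244). The groups did not overlap, as for 13.9% of all features, and Ex3aERKO replicate 4 stood well above the others. Acvr1 was lower in Ex3abERKO than in Ex3bERKO by -0.99 ± 0.29 (limma, adjusted p = 0.0297), with levels of 0.59, 0.63, -0.10 and 0.32 in Ex3abERKO, against 1.80, 2.05, 0.98 and 0.58 in Ex3bERKO, so those groups overlapped. Bmpr1a differed from control by -0.11, -0.13 and 0.02 in Ex3aERKO, Ex3bERKO and Ex3abERKO. Of the other type II receptors of the family, Acvr2b was lower in Ex3abERKO than in control by -1.21 ± 0.35 (limma, adjusted p = 0.0234), at -2.68, -2.49, -4.24 and -2.55 in Ex3abERKO, against -1.74, -1.72, -1.57 and -2.10 in control. The Bmpr1b call was lost without Ex3aERKO replicate 1 or Ex3abERKO replicate 1, 2 or 4 (limma, adjusted p from 0.0525 to 0.0716), with the slide as a block (-1.83, 0.0558) and without the 3 arrays (-2.16, 0.0726). The Acvr1 call was lost without Ex3bERKO replicate 1 or 2 or Ex3abERKO replicate 3 or 4 (0.0609 to 0.0894), with the slide as a block (0.104), with normexp (-1.02, 0.0509) and without the 3 arrays (-1.08, 0.0656). The Acvr2b call was lost without control replicate 1, 2 or 3 (0.0514 to 0.0657).

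Further down, the receptor-activated Smad1, Smad5 and Smad9, their partner Smad4 and the inhibitory Smad6 and Smad7 passed in none of the 7 tests. Smad1 came closest against control, at -0.67 ± 0.22 in Ex3aERKO (limma, adjusted p = 0.0779). The Id genes are transcriptional targets of this SMAD branch. Id1, Id3 and Id4 passed nowhere, and Id2 was higher in Ex3abERKO than in Ex3bERKO by 0.94 ± 0.25 (limma, adjusted p = 0.0201), at 3.75, 3.57, 4.43 and 3.76 in Ex3abERKO, against 2.97, 3.54, 2.75 and 2.48 in Ex3bERKO. Those groups did not overlap, as for 19.4% of all features. The Id2 call was lost without Ex3bERKO replicate 3 or 4 (limma, adjusted p = 0.0579 and 0.0723) and with the slide as a block (0.78, adjusted p = 0.0696).

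**Figure D4:**
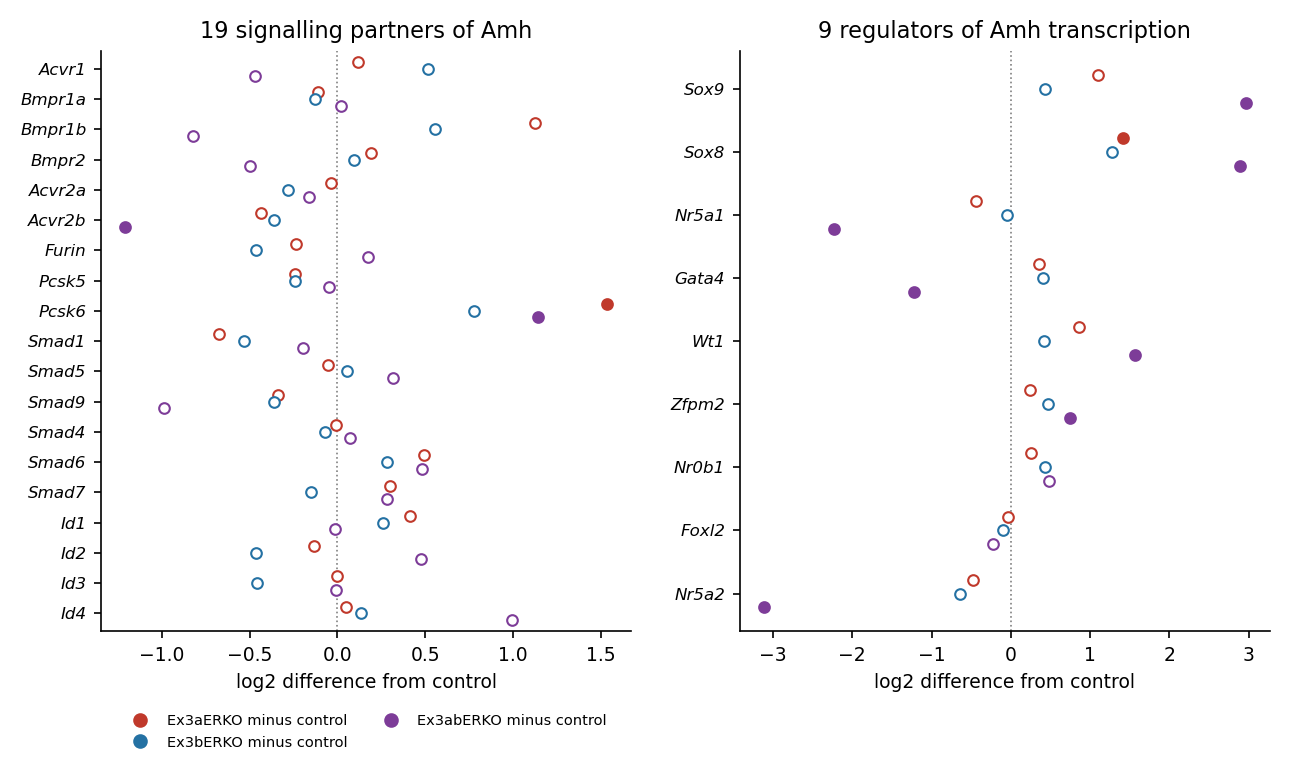
Log2 difference from control of the 19 signalling partners (left) and of 9 regulators of Amh transcription (right) in Ex3aERKO, Ex3bERKO and Ex3abERKO; filled points passed at an adjusted p under 0.05 by limma. On the left 3 points are filled (Pcsk6 in 2 groups, Acvr2b in 1), and on the right most filled points belong to Ex3abERKO; Dmrt1 is not drawn because only Ex3abERKO measured it well above background.

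The transcription factors known to act on the Amh promoter moved in both directions in Ex3abERKO while 1 call at most was made in a single knockout. Of 10 listed, all measured, 1 was higher in Ex3aERKO, none passed in Ex3bERKO, and 5 were higher and 3 lower in Ex3abERKO, beside 7.92%, 1.00% and 22.2% of all features. The 5 include Dmrt1, which was well above background on no array outside Ex3abERKO and so passed the filter only through the group where it is high. The Dmrt1 call was lost with capped normexp (0.45, limma, adjusted p = 0.064). The median log2 differences of the 10 were 0.249, 0.41 and 0.613, against -0.084, 0.01 and -0.105 over all features. Of these 10, 3 are also in the Sertoli list (Sox9, Sox8 and Dmrt1) and 2 in the granulosa list (Foxl2 and Nr5a2). Sox9 was at 0.08, -0.05, 1.09 and 0.96 in Ex3abERKO, against -2.84, -2.54, -2.26 and -2.12 in control, a rise of 2.96 ± 0.37 (limma, adjusted p = 0.000154). In Ex3aERKO it was at -1.27, -0.79, -0.92 and -2.37, which differed from control by 1.10 ± 0.37 (limma, adjusted p = 0.0913). Sox8, its close relative, rose by 2.89 ± 0.32 in Ex3abERKO and by 1.41 ± 0.32 in Ex3aERKO (limma, adjusted p = 6.54e-05 and 0.013), but only 2 of the 4 control arrays measured it above background and with normexp background correction neither call was kept, at 0.64 in Ex3abERKO and -0.33 in Ex3aERKO (adjusted p = 0.413 and 0.684). The Ex3aERKO call was also lost with capped normexp (0.33, adjusted p = 0.292) and without the 3 arrays (1.29, adjusted p = 0.118). Wt1 rose by 1.57 ± 0.32 and Zfpm2, the cofactor of Gata4, by 0.75 ± 0.25 in Ex3abERKO (limma, adjusted p = 0.00333 and 0.0462), but the Zfpm2 call was lost under 17 of 26 alternatives (adjusted p from 0.0518 to 0.135). These were normexp, no filter, the slide block, the replicate block, the removal of the 3 arrays, and the removal of any single array other than Ex3aERKO replicate 1 or 4, Ex3bERKO replicate 3 or Ex3abERKO replicate 3.

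Nr5a1, or SF-1, which binds the Amh promoter directly, was at -2.69, -3.17, -3.58 and -2.94 in Ex3abERKO, against -0.72, -0.60, -0.69 and -1.45 in control. These groups did not overlap, as for 24.9% of all features. It fell by 2.23 ± 0.25, or 4.68-fold (limma, adjusted p = 7.7e-05), while in Ex3aERKO and Ex3bERKO it differed by -0.44 ± 0.25 and -0.04 ± 0.25 (adjusted p = 0.365 and 0.994). Gata4, which acts on the promoter with it, fell by 1.22 ± 0.26 in Ex3abERKO (limma, adjusted p = 0.00464) and differed by 0.36 ± 0.26 in Ex3aERKO and 0.40 ± 0.26 in Ex3bERKO. The interaction passed for both, at -1.75 ± 0.35 for Nr5a1 and -1.98 ± 0.37 for Gata4 (limma, adjusted p = 0.0157 and 0.0106), but not with normexp (-1.32 and -1.41, adjusted p = 0.0667 and 0.0645) and, for Gata4, not without the 3 arrays (-1.95, 0.0615). Nr5a2, which recognises the same sequence as Nr5a1, fell by 3.11 ± 0.37 in Ex3abERKO (limma, adjusted p = 0.000105). Between Ex3abERKO and Ex3aERKO, where the Amh difference was -0.19, Nr5a1 was lower in Ex3abERKO by -1.79 ± 0.25, Gata4 by -1.57 ± 0.26 and Nr5a2 by -2.63 ± 0.37, and Sox9 was higher by 1.86 ± 0.37 (limma, adjusted p = 0.0012, 0.0034, 0.0012 and 0.00892).

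The sequence upstream of Amhr2 is shown because the letters that Nr5a and Gata factors recognise occur in it. Nr5a1, Gata4 and Nr5a2 were called lower than control in Ex3abERKO, where Amhr2 was called higher. Whether any factor acts through these letters in these ovaries was not tested. RefSeq (GRCm38.p6, a later build than that of the array) places the 250 bases before the Amhr2 start at chr15:102445117-102445366 on the plus strand, and capitals mark the matches found. No such window was at hand for Amh.
Amhr2 upstream: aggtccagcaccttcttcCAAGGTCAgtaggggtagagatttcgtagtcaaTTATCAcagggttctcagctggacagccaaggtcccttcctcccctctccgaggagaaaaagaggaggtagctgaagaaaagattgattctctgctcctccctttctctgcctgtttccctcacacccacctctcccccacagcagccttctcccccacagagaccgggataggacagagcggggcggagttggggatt
Both strands were searched. The Nr5a core CAAGGTCA begins 232 bases before the start and occurs in 1.33% of 32851 such windows of the mouse genome. Its last 5 letters are the estrogen receptor half-site GGTCA, found in 35.2% of windows, and any match to the longer core is also a match to it. The GATA letters TGATAA lie on the reverse strand 199 bases before the start (7.94% of windows). The full palindromic estrogen response element (0.0639% of windows) and the Sox core AACAAT (9.42%) were not in this window. The GATA spelling AGATAA (9.99% of windows) was absent too, as were TGATAG (6.35% of windows) and, with its share of 7.71%, AGATAG.

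In the genome Amh lies between Sf3a2, a splicing factor gene, and Jsrp1, a gene known for calcium release in muscle, by the RefSeq order. Jsrp1 moved the same way as Amh. It was at -3.14, -3.55, -3.31 and -3.39 in Ex3aERKO and at -1.83, -2.50, -1.38 and -1.75 in Ex3bERKO. It was at -2.81, -3.82, -3.63 and -2.72 in Ex3abERKO, against -2.37, -2.36, -2.38 and -2.53 in control. All 8 arrays without ERα lay below all 8 with it. Over all features, 16.8% had no overlap between Ex3aERKO and control, and 24.9% between Ex3abERKO and control. Against Ex3bERKO the shares were 8.37% for Ex3aERKO and 19.4% for Ex3abERKO. Jsrp1 fell by 0.94 ± 0.26 in Ex3aERKO and by 0.84 ± 0.26 in Ex3abERKO relative to control (limma, adjusted p = 0.0402 and 0.0325) and was lower than in Ex3bERKO by -1.48 ± 0.26 in Ex3aERKO and by -1.38 ± 0.26 in Ex3abERKO (adjusted p = 0.0065 and 0.00317). The call in Ex3aERKO was lost without any single array of control or Ex3aERKO or without Ex3bERKO replicate 1 or 4, and that in Ex3abERKO without any control array or Ex3abERKO replicate 2 or 3 (limma, adjusted p from 0.0506 to 0.118). With normexp neither passed (adjusted p = 0.0627 and 0.0547), nor did they without the 3 arrays (-0.91 and -0.69, adjusted p = 0.152 and 0.151), and normexp also ended the call between Ex3aERKO and Ex3bERKO (-1.20, adjusted p = 0.0795). Over the 16 arrays its r with Amh was 0.842, exceeded by 155 of 18237 genes, and 0.441 with group means removed. Sf3a2 passed in none of the 7 tests (r = -0.099 with Amh). The files do not say whether the Jsrp1 and Amh transcripts overlap.

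Amhr2 lies between Sp1 and Prr13. Neither followed it (r = -0.135 for Sp1 and 0.023 for Prr13). Sp1, a general transcription factor, passed nowhere. Prr13 rose by 1.04 ± 0.27 in Ex3abERKO relative to control (limma, adjusted p = 0.0119) and differed by 0.33 ± 0.27 in Ex3aERKO and 0.02 ± 0.27 in Ex3bERKO.

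**Figure D5:**
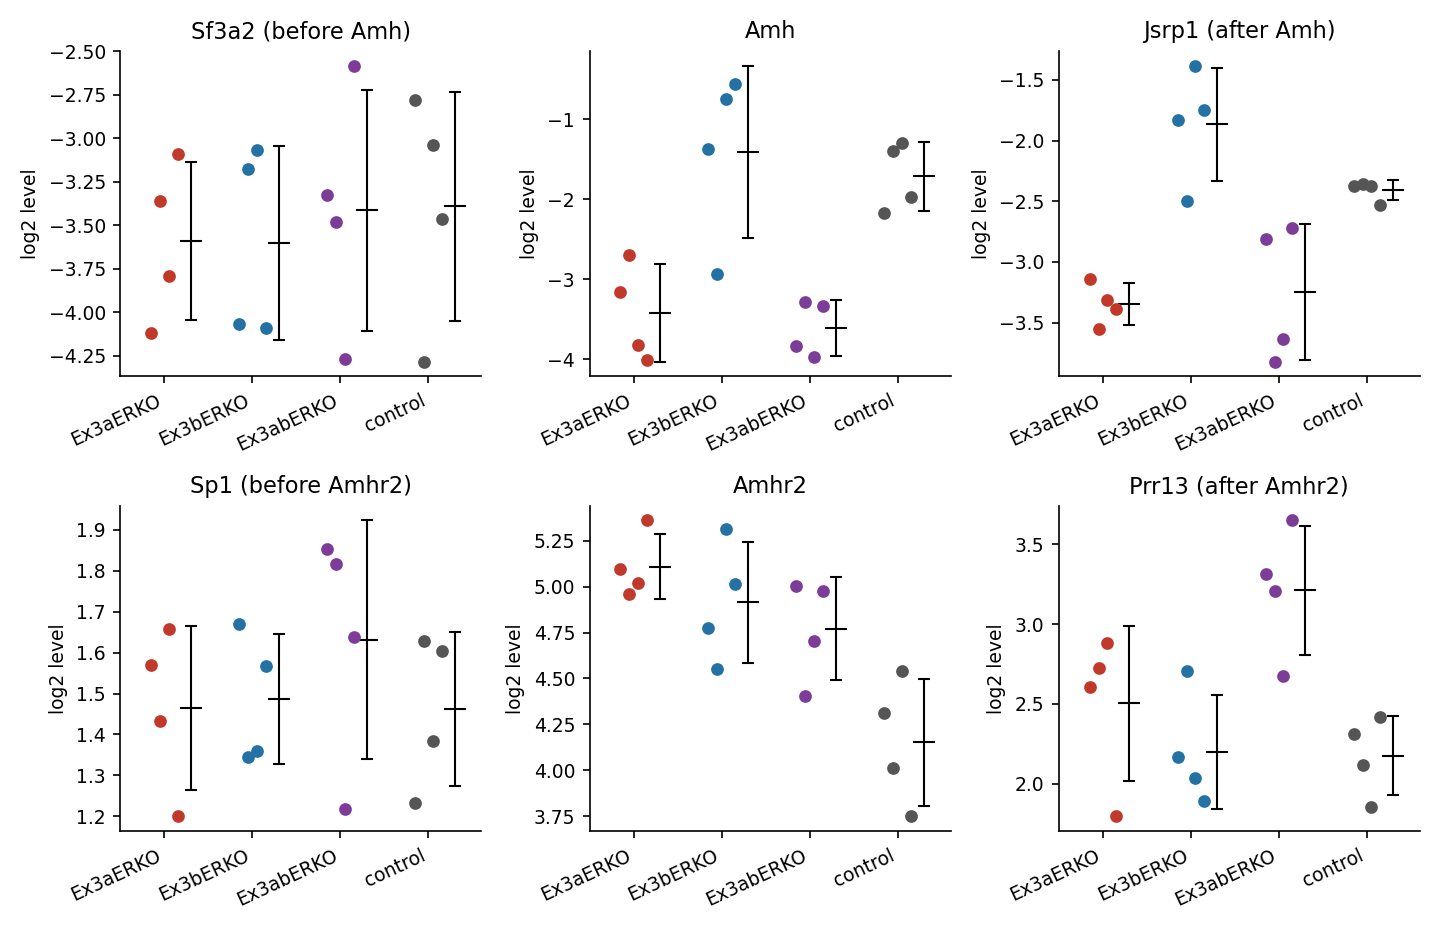
Log2 level of Amh and Amhr2 (middle) and of the annotated gene on each side of them, by group; points are arrays and bars are mean ± SD of 4. Jsrp1, after Amh, is below every control array in Ex3aERKO and Ex3abERKO as Amh is; Sf3a2 and Sp1 show no difference that passed.

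The genes with the profile most like Amh over the 16 arrays were Lin28a (r = 0.955), Slc18a2 (0.948), Fam151a (0.944), Kif17 (0.944) and Fgf8 (0.942), and 43 of 18237 genes exceeded 0.9. These 5 were picked for this r on these arrays, so it is a description. Fgf8, a growth factor that oocytes secrete, was at -2.35, -2.86, -2.87 and -2.67 in Ex3aERKO and at -0.65, -2.07, -0.63 and -0.58 in Ex3bERKO. It was at -2.89, -2.85, -2.59 and -2.57 in Ex3abERKO, against -1.56, -1.18, -1.14 and -1.41 in control. As for Amh, replicate 2 was the low array of Ex3bERKO. Slc18a2, a vesicular monoamine transporter, had the widest span of these genes: it fell by 3.67 ± 0.49 in Ex3aERKO and by 3.41 ± 0.49 in Ex3abERKO (limma, adjusted p = 0.000561 and 0.000315) and differed by 0.49 ± 0.49 in Ex3bERKO. Lin28a, an RNA-binding protein of germ cells, was well above background on none of the 8 arrays of Ex3aERKO and Ex3abERKO and on all 8 of Ex3bERKO and control. It therefore passed the filter only through the groups where it is high. Its r with Amh rests in part on readings not well above background.

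Amhr2 had no gene above r = 0.9. The 5 nearest were Hdac6 (0.891), Papss2 (0.887), Gstm3 (0.88), Daam2 (0.806) and Rnf182 (0.795), likewise picked on these arrays. Gstm3, a glutathione transferase, was at 6.73, 6.87, 6.92 and 6.72 in Ex3aERKO and at 6.62, 6.50, 6.85 and 6.63 in Ex3bERKO. It was at 6.47, 6.30, 6.62 and 6.76 in Ex3abERKO, against 5.48, 5.61, 5.97 and 5.52 in control. All knockout arrays lay above all controls, where 16.8%, 7.99% and 24.9% of all features had no overlap in Ex3aERKO, Ex3bERKO and Ex3abERKO. Gstm3 rose in these groups by 1.16 ± 0.15, 1.01 ± 0.15 and 0.89 ± 0.15 (limma, adjusted p = 0.000452, 0.00422 and 0.000876). Hdac6, a cytoplasmic deacetylase, differed by 0.51 ± 0.16, 0.36 ± 0.16 and 0.16 ± 0.16 in the same groups and passed in none (adjusted p = 0.0731, 0.487 and 0.559).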

How the data were processed

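Total RNA from whole ovaries was labelled with Cy3 and hybridised to 1-colour Agilent arrays, per the labels' protocols. The deposited intensities are the scanner's processed signals, which the authors' software, Feature Extraction 9.5 per the submitters' processing notes, corrected for background within each array. The deposited series table held the same intensities for all 41174 probes (relative tolerance 1e-04), so its scale is linear and uncentred. Its column medians ran from 149.48 to 252.7.

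Each signal was divided by the array's 75th percentile over 43379 non-control spots and taken to log2. Outlier spots were left out and spots of a probe averaged. Probes well above background on at least 4 of 16 arrays were kept (36232), and the brightest kept probe stood for a gene, giving 24595 features. limma 3.58.1 in R 4.3.3 fitted 1 mean per group over all 16 arrays (12 residual degrees of freedom), with Benjamini-Hochberg adjustment over all features of a comparison and a threshold of 0.05. The fit was tested on simulated data. Intervals are 95%. The number of arrays limits the precision. Gene names came by accession for 22951 probes and by current or older symbol for 6659 and 3109 through the RefSeq table (GRCm38.p6), and 8455 probes had none.

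The members and gene lists were chosen with earlier results of these data known, and 1 regulator of the Amh promoter is not reported here. Named genes were the members, every partner and regulator that passed or whose role is described, the first 2 measured genes of the oocyte, granulosa and Sertoli lists, the annotated neighbours and the 5 genes most correlated with each member. Alternatives were normexp background correction (offset 50), with local background capped as an addition made after seeing the data, median and quantile scaling, other filters, slide and replicate blocks, and leaving out single arrays or 3 arrays.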

Additional observations from a re-analysis of the deposited data

Results flagged for a closer look

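Neither Amh nor Amhr2 had an array standing apart in a group by Dixon's 95% criterion. Among the signalling partners, regulators and other named genes, 18 of 186 groups of 4 did, where chance gives about 1 in 20. The 186 are not independent draws: they share the same arrays and include genes picked for likeness to Amh or Amhr2. The criterion sets the gap against the range of the 4 arrays, so a small gap can be flagged where the other arrays nearly coincide. In Ex3aERKO, replicate 4 stood apart for Acvr2b (-1.78), Smad6 (-1.46, against -1.49 to -1.48), Id4 (-2.45) and Wt1 (1.35). In Ex3abERKO, replicate 3 stood apart for Acvr2b (-4.24), Furin (1.86), Smad6 (-2.22) and Wt1 (3.78). In Ex3bERKO, replicate 2 stood apart for Smad7 (-2.34), Nr0b1 (0.01), Nr5a2 (2.07), Kif17 (-4.70) and Fgf8 (-2.07), replicate 1 for Acvr2a (-3.64) and replicate 4 for Sox9 (-2.83). In control, Nr5a1 was at -1.45 and Jsrp1 at -2.53 (against -2.38 to -2.36) in replicate 4, and Zfpm2 at -1.08 in replicate 3. The effect of losing ERα differed with the presence of ERβ, by the interaction term of limma, for Nr5a1 (-1.75, adjusted p = 0.0157), Gata4 (-1.98, adjusted p = 0.0106) and Fshr (-2.83, adjusted p = 0.0113). It also passed for 4 of the 5 genes picked for their likeness to Amhr2 on these arrays: Papss2 (-1.55, adjusted p = 0.0113), Gstm3 (-1.28, adjusted p = 0.0048), Rnf182 (-1.59, adjusted p = 0.00945) and Daam2 (-1.35, adjusted p = 0.0491). Over all features 3.53% passed. Amhr2 itself had an interaction of -1.10, so genes picked for likeness to it tend to share that sign, and their calls are no separate result. The Daam2 call was lost under 18 of 26 alternatives (adjusted p from 0.0516 to 0.216). Without the 3 arrays Papss2 and Gstm3 missed too (-1.33 and -1.14, adjusted p = 0.0653 and 0.0562), and with normexp Papss2 and Rnf182 did (-0.85 and -0.82, adjusted p = 0.534 and 0.532).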

How the results depend on the processing

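No alternative turned the direction of a called Amh or Amhr2 difference. Amh in Ex3abERKO passed under all 26 alternatives against control (-2.09 to -1.43) and against Ex3bERKO (-2.71 to -1.75). The replicate block, whose numbers did not pair the arrays (correlations -0.293 to 0.45, with 4 of 16 arrays closest to their own number), ended Amh in Ex3aERKO against control (-1.71, adjusted p = 0.0634) and against Ex3bERKO (-2.02, 0.0696), and the slide block ended the second (-1.85, 0.0577). Without single arrays these ran from -1.95 to -1.51 and from -2.53 to -1.73. Without the 3 arrays they were -2.04 and -2.26, and Amhr2 was 0.87 in Ex3aERKO and 0.61 in Ex3abERKO, none passing. Amhr2 in Ex3abERKO also missed with quantile scaling (0.59) and no filter (0.62), and ran from 0.48 to 0.75 without single arrays. The Amhr2 interaction passed with quantile scaling (-1.35), the filter on all 16 arrays (-1.10) and capped normexp (-1.07), and ran from -1.23 to -0.96 without single arrays. Without the 3 arrays the exact test of Amh minus Amhr2 could not pass after adjustment, with 3 arrays against 3 or 4, so its adjusted p of 0.15 says nothing about stability; the value was -2.91 (Ex3aERKO) and -2.70 (Ex3abERKO) against control and -2.50 and -2.29 against Ex3bERKO, and without single arrays -2.96 to -2.38, -2.75 to -2.36, -2.60 to -1.93 and -2.45 to -1.81. Normexp, distorted on control replicate 1 by 16 spots of very bright local background, reversed Sox8 in Ex3aERKO (-0.33) and Dmrt1 in Ex3abERKO (-0.23). Capped normexp gave 0.33 and 0.45 for these, and neither passed (limma, adjusted p = 0.292 and 0.064). Normexp also shifted the median of all features to -0.343, -0.273 and -0.364 in Ex3aERKO, Ex3bERKO and Ex3abERKO. Features called ranged from 539 to 2154, 63 to 344 and 3121 to 5580 in these groups against control, 746 to 2060 (Ex3abERKO minus Ex3aERKO), 1931 to 4328 (Ex3abERKO minus Ex3bERKO), 230 to 654 (Ex3aERKO minus Ex3bERKO) and 250 to 1133 (interaction). A second probe could not be tried, since each gene has 1. The cause of these changes was not tested. Amh, at 2.63 to 26.8 times background, is the less well measured gene.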
